A study of Drosophila melanogaster with 3 samples.

Results

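The genes described here encode the endosome sorting machinery of the fly: the ESCRT complexes, retromer with its sorting nexins, the HOPS and CORVET tethers, and the lipid kinases and fusion factors that act with them. The 41 genes were chosen by name for their membership of these complexes, and the rule used no measured value. Each was found by its FlyBase gene ID among the 17768 genes listed in every library. The RNA came from nephrocytes, the large filtering cells that sit beside the heart tube of the adult fly, dissected from females 4 days old and sorted by flow cytometry. All 3 libraries were of 1 group, control flies that carried *Hand*-GFP together with *Klf15*-Gal4 and UAS-RFP over the balancer CyO, reared at 25 °C on a normal diet with 6% sucrose and collected as 3 replicates of 200 flies. *Klf15* regulatory sequence drives Gal4, and thus RFP, in nephrocytes, *Hand*-GFP also marks heart cells, and the submitters state that 100 to 200 nephrocytes were obtained. No treated or mutant flies were measured, so every comparison below is between genes within a library.

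A protein taken up at the cell surface reaches the early endosome and is then either returned or destroyed. ESCRT proteins gather ubiquitin-tagged cargo and bud it into the endosome for degradation, whereas retromer and sorting nexins pull other receptors into tubules that go back to the surface or the Golgi. CORVET tethers early endosomes to each other, HOPS tethers late endosomes to lysosomes, and phosphoinositide kinases mark the membranes on which all of these assemble. Nephrocytes take up protein from the hemolymph at a high rate and hold large populations of endosomes and lysosomes.

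Expected counts, RSEM's estimates of reads per gene, summed to 8801238, 7808930 and 8797916 in libraries 1, 2 and 3. Levels are deposited TPM, a measure of relative transcript abundance that corrects for transcript length and sums to 1000000 in each library, given as mean ± SD over n = 3 libraries, and a gene was called detected where all 3 libraries gave at least 1 TPM. The 9 nephrocyte markers examined were all detected, with a summed level of 11133 to 12774 TPM. Of 12 muscle and heart markers 11 were detected, summing to 5734, 3093 and 9645 TPM in libraries 1, 2 and 3, and *fln* was at 0 in all 3. Hemocyte markers were detected for 3 of 10 genes, fat body for 0 of 10, ovary for 1 of 7, neuron and glia for 1 of 6 and midgut for 2 of 6. In such bulk RNA, fewer cells of a type and less RNA per cell cannot be told apart.

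Transcripts of all 41 genes were detected in adult nephrocytes, against 40.5% of all listed genes. Their median level was 85.8 TPM, compared with 20.9 TPM over the 7193 detected genes. Of the 41, 34 had a mean above the median of detected genes, a mark that 50% of detected genes pass by construction, and 11 reached the 90th percentile, where 10% lie by construction. The 7 genes below the median were *Vps11*, *Vps39*, *Vps33B*, *Vps16B*, *Vps34*, *Vps15* and *fab1*. Together the 41 genes made up 7696 ± 496 TPM (SD, n = 3), or 0.770% of all transcripts. Counts behind these values ran between 129 for *Vps11* in library 1 and 17339 for *Snx3* in library 2.

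**Figure D1:**
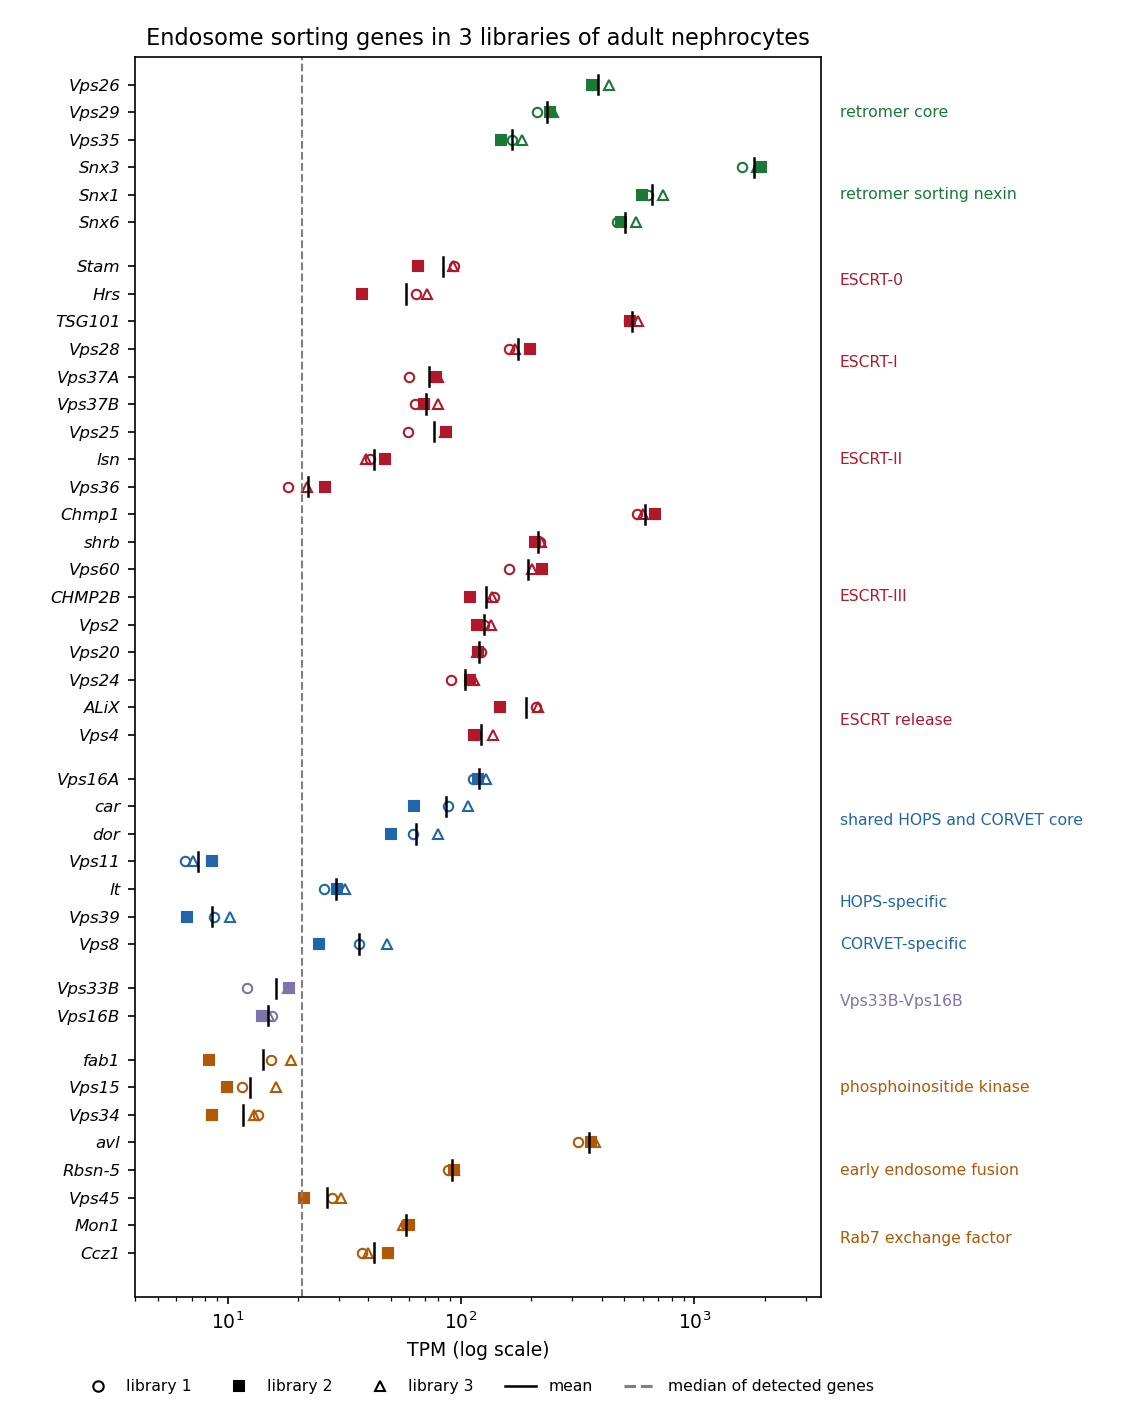
TPM on a log scale for the 41 sorting genes, grouped by complex, with a symbol for each of 3 libraries, a black bar for the mean and a dashed line at the median of detected genes (20.9 TPM). *Snx3* lies farthest to the right at a mean of 1798 TPM and *Vps11* farthest to the left at 7.42 TPM.

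Retromer and its sorting nexins were the most abundant group. *Snx3*, which encodes the sorting nexin that in flies carries the Wnt transporter Wntless with retromer, had 1604, 1929 and 1862 TPM in libraries 1, 2 and 3, a mean of 1798 ± 172 TPM (SD, n = 3). This gene (FBgn0038065, chromosome 3R, 12628031 to 12630495, plus strand, 2 annotated transcripts) ranked 78 of 17768 and alone supplied 48.0 ± 2.8% of the TPM of the 6 recycling genes. *Snx1* and *Snx6* encode sorting nexins with a BAR domain, which bends membrane into tubules. *Snx1* had 635, 598 and 737 TPM in libraries 1, 2 and 3. *Snx6* had 466, 483 and 562 TPM in the same order. The log2 ratio of *Snx1* to *Snx6* was 0.38 ± 0.07, with *Snx1* higher in 3 of 3 libraries.

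The core of retromer, which binds cargo, was lower than its sorting nexins in every library. *Vps26*, an arrestin-like subunit, had 365, 365 and 429.6 TPM in libraries 1, 2 and 3. *Vps29*, the smallest subunit, had 211, 241 and 249 TPM. *Vps35*, the long scaffold that joins the other subunits, had 166, 148 and 183 TPM and was the lowest of the 6. *Vps26* took 49.2 ± 0.7% of the TPM of the 3 core genes and *Vps35* 21.1 ± 1.4% (SD, n = 3). The order *Snx3*, *Snx1*, *Snx6*, *Vps26*, *Vps29*, *Vps35* was the same in all 3 libraries, and each neighbouring pair differed by more than the SD of its within-library ratio.

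Among the 18 ESCRT genes, *Chmp1* and *TSG101* stood above the rest. ESCRT-0 binds ubiquitinated cargo first, and its genes *Hrs* and *Stam* were at 57.8 ± 18.0 and 83.5 ± 15.8 TPM (SD, n = 3). *Hrs* had 64.3, 37.4 and 71.6 TPM in libraries 1, 2 and 3, and *Stam* had 93.2, 65.3 and 92.0 TPM, so that both were lowest in library 2. In ESCRT-I, *TSG101* (FBgn0036666, chromosome 3L, 16842294 to 16844585, plus strand), the subunit that binds ubiquitin, had 526, 531 and 572 TPM and made up 63.0 ± 2.2% of the complex's TPM. *Vps28*, which links ESCRT-I to ESCRT-II, was at 176 ± 18.2 TPM. *Vps37A* and *Vps37B*, alternative subunits of ESCRT-I, were at 72.6 ± 11.3 and 70.9 ± 8.24 TPM and could not be ordered, with *Vps37A* the higher in libraries 2 and 3 only. ESCRT-II was the lowest of the ESCRT assemblies by its median gene. *Vps25* was at 76.8 ± 15.4 TPM, *lsn* (the fly Vps22) at 42.4 ± 4.28 TPM and *Vps36*, which binds membrane lipid and ubiquitin, at 22.1 ± 4.0 TPM (SD, n = 3).

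ESCRT-III polymers cut the neck of the forming vesicle. *Chmp1* (FBgn0036805, chromosome 3L, 18682895 to 18684061, minus strand), whose product recruits regulators of Vps4, had 566, 680.1 and 605 TPM in libraries 1, 2 and 3 and made up 41.01 ± 2.17% of the TPM of the 7 ESCRT-III genes. The other 6 lay within a much narrower range. *shrb*, the main polymer subunit (Snf7), had 217, 207 and 219.9 TPM, and its nucleator *Vps20* had 122, 118 and 117 TPM. *Vps20* had the smallest coefficient of variation of the 41 genes, at 2.17%. *Vps60* was at 194 ± 31.3 TPM, *CHMP2B* at 128 ± 16.4 TPM, *Vps2* at 126 ± 8.48 TPM and *Vps24* at 104 ± 12.3 TPM (SD, n = 3). Several neighbours in this order changed places in library 2, where *Vps60* was above *shrb*, *Vps2* above *CHMP2B* and *Vps20* above *Vps2*. *Vps4*, the ATPase that takes ESCRT-III apart, was at 122 ± 13.4 TPM. *ALiX*, an adaptor that brings ESCRT-III to membranes, was at 190.4 ± 37.8 TPM, with 209.6, 147 and 215 TPM in libraries 1, 2 and 3.

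The median tethering gene was lower than the median ESCRT gene, and the means of the tethering genes spanned 16.1-fold between *Vps16A* and *Vps11*, compared with 27.9-fold among the 18 ESCRT genes. HOPS and CORVET share a core of *Vps16A*, *car* (Vps33A), *dor* (Vps18) and *Vps11*; *lt* (Vps41) and *Vps39* are added in HOPS and *Vps8* in CORVET. Mutants of *car*, *dor* and *lt* are known for their eye color, since pigment granules are made through the same tethers. *Vps16A* (FBgn0285911, chromosome 3R, 9267019 to 9270224, plus strand) had 112, 118 and 128 TPM in libraries 1, 2 and 3. *car*, the SNARE-binding subunit, had 87.5, 62.9 and 107 TPM, and *dor* had 62.5, 50.1 and 79.5 TPM. *Vps11* (FBgn0052350, chromosome 3L, 23147656 to 23150499, minus strand), the remaining core gene, had only 6.57, 8.58 and 7.12 TPM, which was 2.75 ± 0.73% of the TPM of the core (SD, n = 3). In flies a smaller CORVET that has Vps8, Dor, Car and Vps16A but lacks Vps11 has been described. *Vps8* had 36.6, 24.6 and 48.2 TPM. *lt*, the HOPS subunit that binds late endosomes, had 25.9, 29.5 and 31.7 TPM. *Vps39*, its partner at the other end of HOPS, had 8.70, 6.68 and 10.2 TPM, and *Vps39* and *Vps11* changed places in library 2, as did *Vps8* and *lt*.

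*Vps33B* and *Vps16B*, paralogs of *car* and *Vps16A* that form a complex of their own, were both low. *Vps33B* had 12.1, 18.3 and 18.1 TPM in libraries 1, 2 and 3, and *Vps16B* had 15.5, 14.1 and 15.1 TPM, an order that differed between libraries. The canonical paralogs were higher in each library. The log2 ratio of *Vps16A* to *Vps16B* was 3.00 ± 0.13 and that of *car* to *Vps33B* was 2.40 ± 0.56 (SD, n = 3 libraries).

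The 8 lipid and fusion genes were led by *avl* (syntaxin 7; FBgn0267849, chromosome 3L, 21445834 to 21448128, plus strand), the SNARE of early endosomes, with 318, 362 and 377 TPM in libraries 1, 2 and 3. It supplied 57.8 ± 1.8% of the group's TPM. Its partners in early endosome fusion were lower, with *Rbsn-5*, a Rab5 effector, at 91.6 ± 3.37 TPM and *Vps45*, the SM protein that acts with *avl*, at 26.6 ± 4.80 TPM (SD, n = 3). *Mon1* and *Ccz1* encode the exchange factor that activates Rab7 as endosomes mature, and were at 58.0 ± 1.63 and 42.1 ± 5.78 TPM. The 3 genes for making phosphoinositides were listed below the median of detected genes, a call that is uncertain for *fab1*, since *CG33981* shares all of its exon bases on the same strand. *Vps34*, the kinase that makes PI3P on early endosomes, had 13.4, 8.53 and 12.95 TPM in libraries 1, 2 and 3, and its regulatory subunit *Vps15* had 11.5, 9.88 and 16.1 TPM. *fab1*, the kinase that converts PI3P to PI(3,5)P2 on later endosomes, had 15.4, 8.33 and 18.6 TPM. The order of these 3 kinase genes differed between libraries, and all 3 were lowest in library 2. The small GTPases that these factors serve, *Rab5* and *Rab7*, were at 611 ± 46.3 and 1075 ± 33.3 TPM (SD, n = 3).

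Recycling against degradation was compared by the median TPM of each group within each library. The 6 recycling genes had medians of 416, 424 and 496 TPM in libraries 1, 2 and 3, against 119, 111 and 125 TPM for the 18 ESCRT genes. The recycling median was 3.50-, 3.81- and 3.95-fold the ESCRT median, a log2 ratio of 1.91 ± 0.09 (SD, n = 3). The groups themselves overlapped, as 6 of the 18 ESCRT genes, *Chmp1*, *TSG101*, *shrb*, *Vps60*, *ALiX* and *Vps28*, had means above that of *Vps35*, the lowest recycling gene, and 12 lay below it. Retromer's core alone exceeded the ESCRT median by 0.98 on the log2 scale. The 7 tethering genes had medians of 36.6, 29.5 and 48.2 TPM. In TPM no recycling gene overlapped with a tethering gene in any library, since the lowest recycling value was 148 and the highest tethering value 128. In expected counts, which are not corrected for length, the 2 groups did overlap. *Vps29* had 1208, 1368 and 1413 counts in libraries 1, 2 and 3, and *Vps16A* had 2120, 2214 and 2405. The log2 ratio of recycling to tethering was 3.57 ± 0.25, or 11.3-, 14.4- and 10.3-fold in libraries 1, 2 and 3. Tethering over ESCRT gave -1.66 ± 0.27 (SD, n = 3), with the tethering median the lower in 3 of 3 libraries.

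With 3 libraries of 1 condition, the exact two-sided sign-flip permutation test of within-library ratios cannot go below p = 0.25, and each of these 3 comparisons reached that value (Benjamini-Hochberg adjusted p = 0.3125 over 15 comparisons of groups and pairs). These p-values show only that the 3 libraries gave the same direction, and they do not measure the spread between them. Tethering genes are long, with transcripts of 2741 to 3885 bases, and the comparison of tethering with ESCRT depended on the correction for length: in CPM, read counts scaled to library size with no length correction, it was 0.14 ± 0.42 and changed sign (p = 0.75, exact permutation test). In CPM the other ratios were 2.85 for recycling over ESCRT and 2.71 for recycling over tethering on the log2 scale. Among the 987 detected genes in the tethering genes' range of length, the median level was 19.4 TPM.

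**Figure D2:**
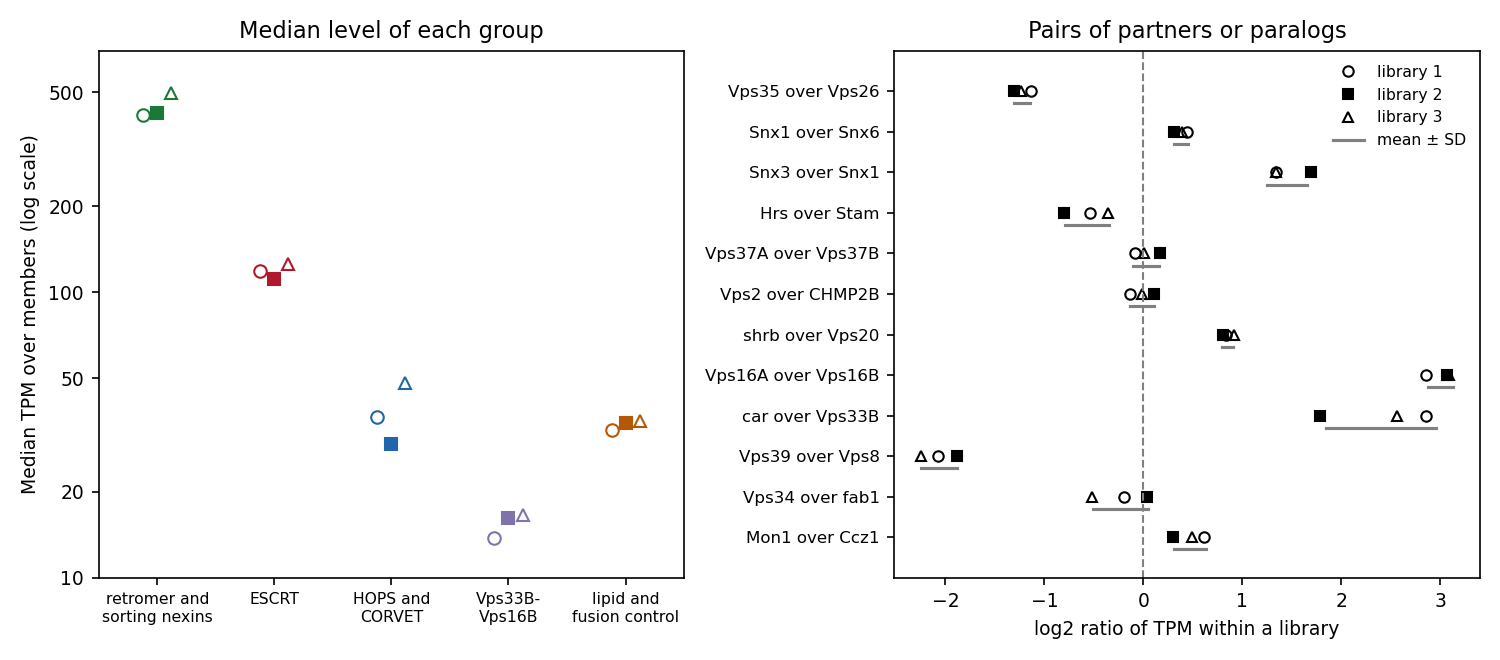
Left, median TPM of each gene group on a log scale in each of 3 libraries, with recycling genes at 416 to 496 TPM and ESCRT genes at 111 to 125 TPM. Right, log2 ratios of TPM within each library for 12 pairs of partners or paralogs, with grey lines for mean ± SD; only *Vps37A* over *Vps37B*, *Vps2* over *CHMP2B* and *Vps34* over *fab1* fall on both sides of 0.

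Of 12 pairs of partners or paralogs, 9 kept their order in 3 of 3 libraries. *Vps35* lay below its partner *Vps26* by a log2 ratio of -1.23 ± 0.08, and *Snx3* lay above *Snx1* by 1.45 ± 0.20 (SD, n = 3). *Hrs* was below *Stam* at -0.57 ± 0.22 and *shrb* above *Vps20* at 0.85 ± 0.06 on the log2 scale. The HOPS subunit *Vps39* was below the CORVET subunit *Vps8* at -2.07 ± 0.18, and *Mon1* above *Ccz1* at 0.47 ± 0.16. Each of the 9 pairs reached the smallest p of the exact sign-flip permutation test, 0.25, with an adjusted p of 0.3125 over 15 comparisons. The other 3 pairs changed order between libraries. *Vps37A* over *Vps37B* gave 0.027 ± 0.13 and *Vps2* over *CHMP2B* gave -0.015 ± 0.12 (p = 0.75 for each, exact permutation test, adjusted p = 0.75). *Vps34* over *fab1* gave -0.23 ± 0.28 (p = 0.5, exact permutation test, adjusted p = 0.577). In TPM the differences of these pairs were within the spread between libraries, which does not show that the genes were equal. In CPM all 3 pairs were beyond their spread, with log2 ratios of 0.49 ± 0.15 for *Vps37A* over *Vps37B*, 0.70 ± 0.12 for *Vps2* over *CHMP2B* and -1.44 ± 0.24 for *Vps34* over *fab1* (p = 0.25 for each, the smallest the exact permutation test allows). Of the pairs with a constant order, 3 had a linear ratio that moved by over 1.5 times in CPM, with no change of direction. On the log2 scale these were *shrb* over *Vps20* at 1.70, *Vps16A* over *Vps16B* at 3.96 and *car* over *Vps33B* at 3.03. *Snx3* over *Snx1*, which stayed below that cut, fell from 1.45 to 0.88.

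The 41 genes differed in how much they varied between libraries. Their median coefficient of variation was 11.6%, compared with 19.3% over all detected genes and 16.1% over the 3670 of those with at least 200 counts in every library. *Vps20* at 2.17% and *Mon1* at 2.81% varied least, and *fab1* at 37.2%, *Vps8* at 32.4% and *Hrs* at 31.2% varied most. Of the 41 genes, 10 had a coefficient above 20%, a cut just above the median of 19.3% over all detected genes. In 18 of 41 the lowest value was in library 2, where 48.3% of detected genes had theirs, and 14 of 41 were ordered library 3 above 1 above 2, as were 32.2% of detected genes. The members' shares were thus near those of all detected genes.

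Transcript length went with the level in library 2. The log2 ratio of library 2 to libraries 1 and 3 had a median of -0.05 over the 41 genes and -0.13 over detected genes. Among the 15 sorting genes with transcripts of 2500 bases or more, 11 were lowest in library 2, compared with 7 of the 26 shorter ones. Detected genes as a whole went the same way. Their median log2 ratio was 0.13 below 1000 bases and -0.88 at 4000 bases or more. Spearman's rho between length and this ratio was -0.64 across the 41 genes and -0.56 across 7193 detected genes, a description only, since the genes share libraries and are not independent. The tethering genes had a median ratio of -0.49. Once the trend on length over all detected genes had been removed, their median was -0.02 and rho across the 41 genes was 0.0043. The adjustment brings rho near 0 by construction over all detected genes (-0.0052), which include the 41. Genes that remained farthest from the trend were *Vps11* at 0.70, *lt* at 0.49 and *Vps33B* at 0.44, with *Hrs* at -0.57 and *CHMP2B* at -0.46 (log2). Of the 11 detected muscle and heart markers 10 were also lowest in library 2, all but *bt*, and the list had a median log2 ratio of -1.14, or -1.11 after the same adjustment. Among detected markers of other cells, 1 of 3 hemocyte genes (*srp*) was lowest in library 2. So were the ovary gene *grk*, the neuron and glia gene *nrv2* and 2 of 2 midgut genes, the last with counts of 15.9 to 43.9. The share over all detected genes was 48.3%. Of the 9 nephrocyte markers 4 were lowest there, with a list median log2 ratio of -0.03, or 0.16 after the adjustment. The summed level of the nephrocyte markers was highest in library 2, at 12774 TPM. *Amnionless* was the largest part, with 5405, 6474 and 5504 TPM in libraries 1, 2 and 3. The 4 nephrocyte markers lowest in library 2 were *sns*, *kirre*, *pyd* and *tin*, so the sum does not stand for each marker. The part of other cells in the levels of the sorting genes was not tested.

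**Figure D3:**
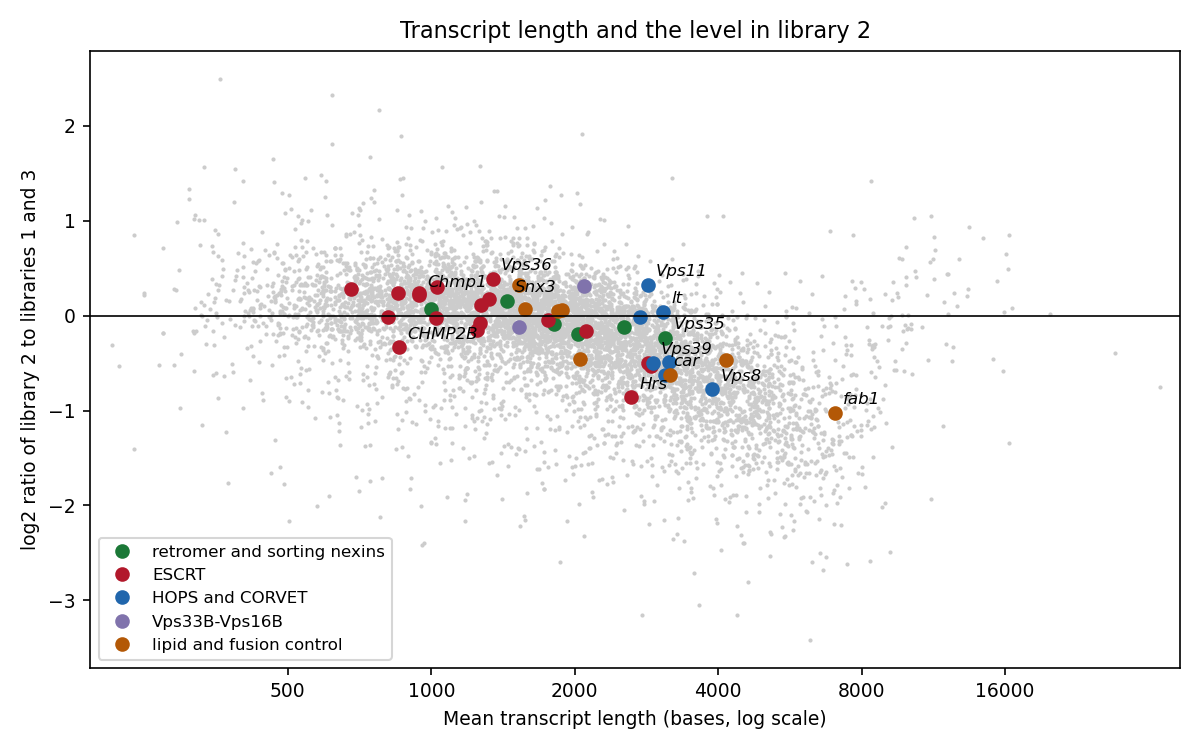
Log2 ratio of TPM in library 2 to libraries 1 and 3 against mean transcript length in bases on a log scale, for 7193 detected genes (grey) and the 41 sorting genes (colored by group). Longer genes lie lower, with *fab1* at -1.02, *Hrs* at -0.86 and *Vps8* at -0.77, while *Vps11* lies at 0.33 despite its length.

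The sorting genes are scattered over the genome, with 8 on chromosome arm 2L, 7 on 2R, 9 on 3L, 12 on 3R and 5 on X, and 23 have a single annotated transcript. Exons of 19 of the 41 overlap those of another gene, and because the strand setting is not given in the sources used here, reads of such pairs may not be separable. The overlap was complete for *fab1*, all of whose 7194 exon bases also belong to *CG33981* on the same strand (16.6 TPM), so the level of *fab1* is uncertain. *Vps24* shared 1525 of 3326 exon bases with *MP1* on the opposite strand (82.6 TPM). *Vps11* shared 788 of 2844 with an antisense RNA, asRNA:CR45164, at 2.08 TPM. Only 5 genes, *Vps26*, *Vps37B*, *Vps24*, *Vps11* and *fab1*, had counts that were not whole, which is where RSEM divided reads among genes.

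Known partners of these complexes had a lower median level than the sorting genes, given here without a test. All 39 partners that could be matched to an ID were detected, against 40.5% of listed genes, with a median of 42.9 TPM. Among ESCRT accessory genes, *Vta1*, a cofactor of Vps4, was highest at 154 ± 15.6 TPM, and *Usp8*, a deubiquitinase, lowest at 15.9 ± 3.93 TPM (SD, n = 3). The WASH complex nucleates actin on the endosomal domains where retromer works. Its 5 genes ran between 19.6 ± 1.93 TPM for *wash* and 5.34 ± 1.54 TPM for *FAM21*, all 5 below the median of detected genes. Sorting nexins other than the 3 of retromer reached at most 136 ± 12.4 TPM, in *SH3PX1*, and *Snx16* was lowest at 8.60 ± 2.45 TPM.

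Cargo of the recycling route and the Golgi tether that receives it gave the following levels. *Lerp*, the lysosomal enzyme receptor, was at 70.5 ± 26.6 TPM, and *wls* (Wntless), which travels with Snx3 and retromer, at 38.4 ± 5.07 TPM (SD, n = 3). GARP tethers the vesicles that arrive at the Golgi from endosomes, and its genes were uneven, with *Vps52* at 77.7 ± 7.80 TPM and *Vps51* at 5.29 ± 0.97 TPM, and 3 of 4 lay below the median of detected genes. Of the partners of *Vps34* and *fab1*, *Uvrag* was highest at 83.6 ± 27.2 TPM and *FIG4* lowest at 11.0 ± 3.11 TPM. Among fusion partners, *Rab7* was the highest of all 39, and *Vti1a*, a SNARE, was the lowest of its list at 14.0 ± 2.19 TPM.

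**Figure D4:**
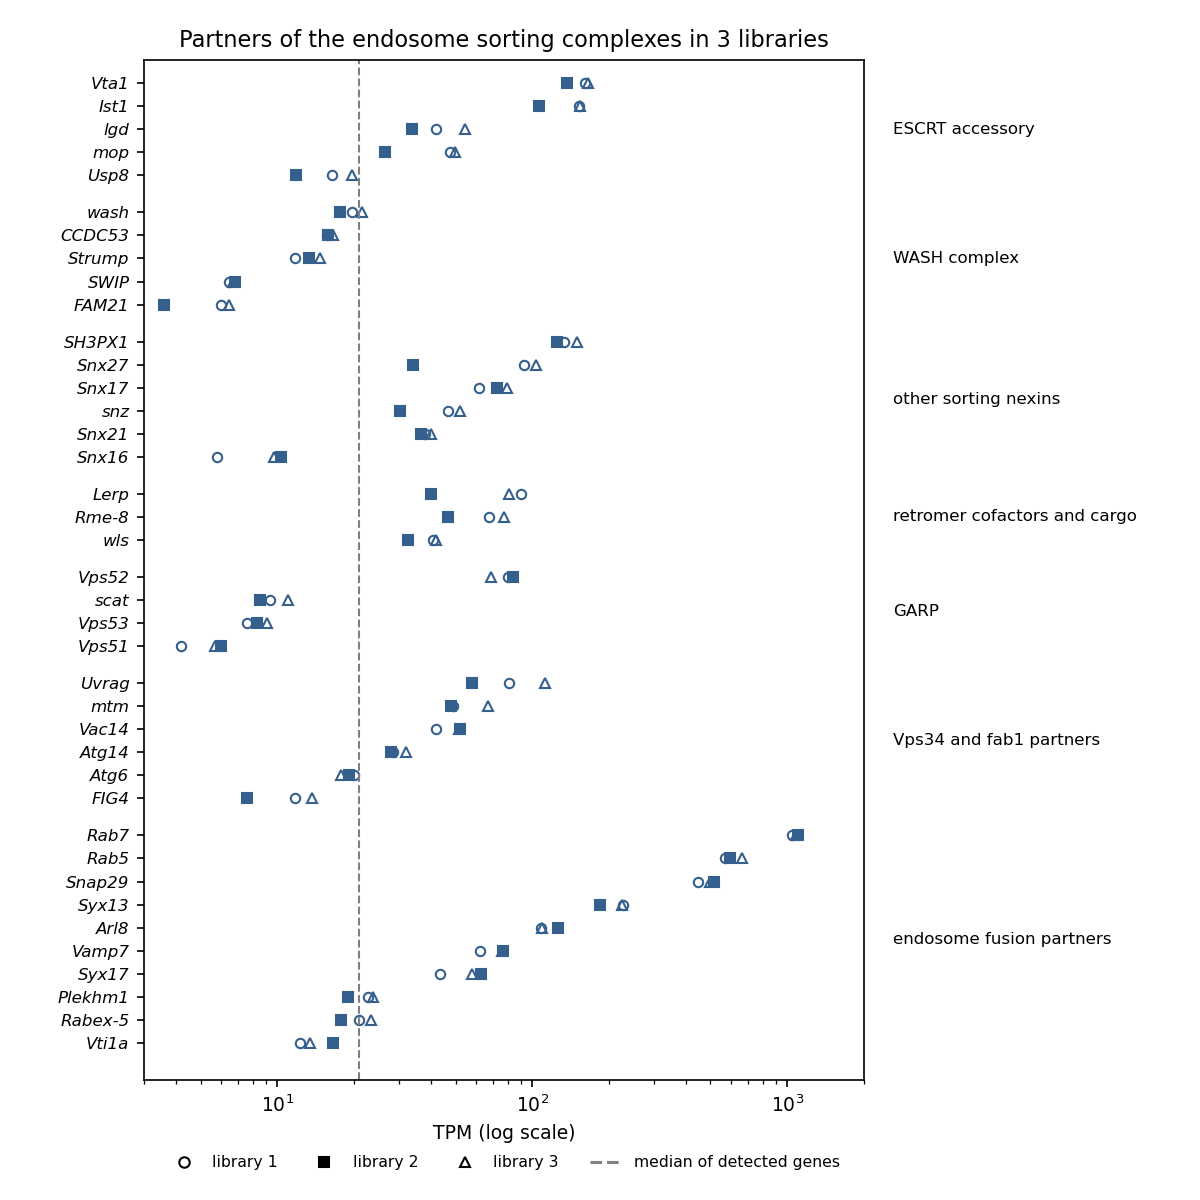
TPM on a log scale for 39 partner genes in 7 lists, with a symbol for each of 3 libraries and a dashed line at the median of detected genes (20.9 TPM). *Rab7* lies highest at 1075 TPM, and all 5 WASH complex genes have means below the dashed line.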

How the data were processed

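RNA from sorted adult nephrocytes was amplified as cDNA with a low-input kit and sequenced in 3 libraries. The authors used STAR 2.7.5c for alignment and RSEM 1.3.3 for quantification, with FlyBase annotation 6.28 (BDGP Release 6). The sources used here state neither read length nor strand setting. Expected counts, as deposited, are unnormalized RSEM estimates of reads per gene, and 8.27% to 8.43% per library were not whole within 0.005. The authors' TPM values are scaled for length and sum to 1000000. The deposited FPKM values served only as an alternative unit.

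Symbols were matched through FlyBase IDs. Coordinates are from BDGP6.54 (Ensembl release 115), of the same assembly release. Libraries were distinct (chi-square per degree of freedom 35.7 to 87.7 for the 3 pairs). Their typical spread was 25.7% (edgeR 4.0.16 common biological coefficient of variation, 7258 genes, counts rounded).

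Groups and pairs were compared as within-library log2 ratios of TPM with no pseudocount, with an exact permutation test that flips the sign of each library's ratio (two-sided), adjusted by Benjamini-Hochberg over 15 comparisons. The length trend was a lowess fit (fraction 0.3). Scripts were tested on simulated data. Members, lists and pairs were chosen with earlier results of these data known. All 41 members are named, and of each partner list the highest and lowest gene. *Rab5*, *CG33981*, *MP1*, asRNA:CR45164, *fln*, *bt*, *srp*, *grk*, *nrv2*, *Amnionless*, *sns*, *kirre*, *pyd* and *tin* were named outside that rule. Alternatives were FPKM, CPM, scaling by TMM or DESeq2 1.42.0, leaving ribosomal RNA and mitochondrial genes out of TPM, other thresholds, medians, the length adjustment and each replicate left out. Python 3.11.15 and R 4.3.3 were used.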

Additional observations from a re-analysis of the deposited data

How the results depend on the processing

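Of 29 alternative values for the 3 group comparisons, 28 kept their direction. The exception was tethering over ESCRT in CPM at 0.14 (p = 0.75, exact permutation test), where the length correction of TPM is absent. The 9 values with one replicate left out could not change direction, since all 3 libraries had the same sign. Restriction to detected members changed no value, since all 41 members were detected. Without one replicate, the log2 ratio of recycling to ESCRT was 1.87 to 1.96, recycling to tethering 3.43 to 3.67 and tethering to ESCRT -1.81 to -1.54. Restricted to genes whose exons overlap no other gene, a choice made after seeing the data, these ratios were 2.40, 4.13 and -1.73. Of 60 alternative values for the pairs, 57 kept their direction. For pairs of constant order this was fixed in advance where one replicate was left out. *Vps2* over *CHMP2B* was 0.70 in CPM (p = 0.25, exact permutation test) and -0.078 to 0.045 with one replicate left out, and *Vps37A* over *Vps37B* was -0.042 to 0.085. All 41 genes were also detected at 0.5 TPM, 5 TPM and 10 counts, as were 7640, 5596 and 7251 of the 17768 listed genes. At 10 TPM 36 of the 41 were detected, against 4512 of the listed genes. *Vps11*, *Vps39*, *Vps34*, *Vps15* and *fab1* missed that cut in at least 1 library. Of 328 alternative levels 46 moved by more than 1 SD, 19 of them in FPKM and 27 without mitochondrial and ribosomal RNA genes, changes of scale that apply to every gene of a library. No paired analysis was possible because the 3 libraries form 1 group, so that no groups share replicate numbers (ratios between genes were taken within each library). With 3 libraries the exact test cannot go below 0.25, and groups of 3 are too small for a search for outlying samples.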
